A study of Mus musculus with 10 samples.

Results

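RNA levels were examined here for 10 genes that link the transcription factor ATF4 to serine synthesis and folate-bound carbon transfer: Atf4, Phgdh, Psat1, Psph, Shmt1, Shmt2, Mthfd1, Mthfd2, Asns and Ddit3. They were taken as a list by gene symbol, with no threshold on a measured value but with earlier results of these data known, and all 10 were found among the 24608 symbols of the deposited table. The study asked which transcripts differ in muscle stem cells (MuSCs) that lack TRPM7, a magnesium-conducting channel with a kinase domain, when the muscle regenerates. MuSCs were taken from adult mice 3 days after muscle injury by cardiotoxin (CTX), and each library was made from 3000 sorted YFP-positive cells. The 5 control libraries came from Trpm7+/+; Pax7 CreERT2/+; Rosa26 YFP mice, and the 5 Trpm7 cKO libraries from Trpm7 flox/flox mice with the same Pax7 CreERT2/+ and Rosa26 YFP alleles. Both genotypes therefore carried the tamoxifen-inducible Cre driven by Pax7 and the YFP reporter that Cre switches on, and both received tamoxifen and CTX. The controls had no floxed allele.

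ATF4 is the main transcription factor of the integrated stress response. Kinases that sense haem loss, double-stranded RNA, unfolded protein or amino acid shortage phosphorylate the initiation factor eIF2α, which lowers general translation and raises translation of the Atf4 mRNA, so that the level of Atf4 RNA does not measure the protein. ATF4 activates genes for amino acid transport and synthesis, including the serine pathway. In that pathway PHGDH, PSAT1 and PSPH convert a glycolytic intermediate to serine, SHMT1 in the cytosol and SHMT2 in mitochondria convert serine to glycine and load its carbon onto tetrahydrofolate, and MTHFD1 in the cytosol and MTHFD2 in mitochondria interconvert the loaded folates, which supply purine and thymidylate synthesis. In MuSCs, eIF2α phosphorylation is known for its part in quiescence, and cells that enter the cycle need the nucleotides that these carbon units help to build.

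Promoter windows of the 10 genes were read from RefSeq on GRCm38.p6, from 250 bases before to 50 bases after each start site, with 11 windows because Psat1 has a pair of start sites. They were searched on both strands for the CARE element TGATGNAA, to which ATF4 binds with C/EBP partners, for the CCAAT box CCAAT, and for the E-box CACGTG, which MYC and related factors bind. None of these motifs contains another. The CARE was found in 1 of the 11 windows, that of Asns, and in 3.97% of 32851 windows of all genes. The CCAAT box was found in 8 of the 11 windows, against 37.4% of all windows, and was absent from the windows of Asns and Shmt2 and from that of the other Psat1 start site. The E-box was found in none of the 11 windows and in 7.15% of all windows. The Asns site is shown because it was the only CARE found. The other sites are the CCAAT boxes farthest upstream in Atf4 and in 3 of the genes that were lower in Trpm7 cKO libraries. Each is written 5′ to 3′ on the strand of the gene, with the motif in capitals, and in Shmt1 the capitals read as the reverse complement of the motif.
Asns: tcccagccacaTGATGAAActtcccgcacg
Atf4: caggtgcagagCCAATaggaacttgag
Psat1: agtgagcgtggCCAATagggaggggag
Shmt1: tgctcccactgATTGGgccgctgtagg
Mthfd2: gactccttcagCCAATcaggacctgct
The Asns stretch lies at chr6:7693214-7693243 with its motif 23 bases before the start site, and the Atf4 stretch at chr15:80255056-80255082 with its motif 117 bases before the start. The Psat1 stretch lies at chr19:15925080-15925106, 36 bases before the start. The Shmt1 stretch lies at chr11:60811297-60811323, 47 bases before, and the Mthfd2 stretch at chr6:83317685-83317711, 96 bases before. Matches of letters are descriptions of these windows, and binding was not measured. Sites outside these windows or with other letters were not searched for, so that an absent match does not show that a gene lacks such an element.

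The libraries were made by CEL-Seq2, which reads the 3′ end of each transcript and counts molecules by their unique molecular identifiers (UMIs). Control libraries held 914361 to 1097709 counts and Trpm7 cKO libraries 205986 to 581121, and the 2 ranges did not overlap. Counts are given below as normalized CPM, the counts divided by each library's total as scaled by edgeR's TMM method, and as 1 tag is read per transcript they are not divided by gene length. Summed MuSC markers, a list of 20 genes such as Pax7 and Myf5, lay at 4809 to 5469 CPM in control and 4301 to 6863 CPM in Trpm7 cKO libraries, and of 19 tested 4 were called lower and 10 higher. Summed leukocyte markers, 30 genes such as Ptprc and Cd68, lay at 448 to 727 CPM in control and at 1667 to 7471 CPM in Trpm7 cKO libraries, and all 24 that could be tested were called higher in Trpm7 cKO. The erythroid list lay at 1.99 to 178 CPM in control and 146 to 3277 CPM in Trpm7 cKO, with 3 of 3 tested genes called higher. The endothelial list lay at 6.43 to 78.7 CPM and 134 to 756 CPM, with 3 of 3 higher, and the fibroadipogenic list at 1412 to 2649 CPM and 2638 to 5222 CPM, with 5 of 6 higher. The myofibre list lay at 204 to 383 CPM in control and 136 to 223 CPM in Trpm7 cKO libraries, with 3 of 4 lower and Myh1 at 0 in every Trpm7 cKO library. Ncf4 of the leukocyte list, Slc4a1 of the erythroid list and Pi16 of the fibroadipogenic list were at 0 in every control library. Transcripts of the mitochondrial genome took 12.04% to 16.5% of the counts in control and 8.8% to 10.6% in Trpm7 cKO libraries, without overlap. The part of this difference in the results below was not tested. Trpm7 itself had 66 to 84 counts in control and 10 to 55 counts in Trpm7 cKO libraries, with a log2 fold change of -0.09 (adjusted p = 0.723, edgeR quasi-likelihood F test, Benjamini-Hochberg adjusted), but 3′ reads do not report on the exon that Cre removes. In bulk libraries, fewer cells of a type and less RNA per cell cannot be told apart. The labels do not say that the samples of a genotype are separate animals, and labels of Trpm7 cKO replicates 4 and 5 contain the same number, whose meaning is not stated, so that p-values measure only the spread between these samples.

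Genes of serine synthesis and folate-bound carbon transfer were lower in Trpm7 cKO libraries where they were called, while Atf4 was higher. Psat1 was 5.38-fold lower, Shmt2 3.67-fold lower, Shmt1 2.10-fold lower and Mthfd2 1.66-fold lower, whereas Atf4 was 1.63-fold higher. Asns, Mthfd1 and Psph did not pass the test, and Phgdh and Ddit3 had too few counts to be tested. Of the 8 genes tested, 4 were thus called lower and 1 higher at an adjusted p below 0.05 in edgeR's quasi-likelihood test, adjusted over all 7753 genes tested. Among all genes tested, 24.1% were called lower and 24.6% higher, 48.7% in all. Psat1 and Shmt2 also fell by more than 1.5 on the log2 scale, a range in which 3.53% of all genes tested were called lower, and no member was past 1.5 upward, where 8.49% of all genes were. The normalized CPM of the 4 genes called lower did not overlap between the genotypes, which held for 17.9% of all genes in that direction and 16.6% in the other. The median log2 fold change of the 8 genes was -0.78, and that of all genes tested was -0.01. Ordered from the lowest log2 fold change among the 7753 genes, Psat1 stood at place 40, Shmt2 at 125, Shmt1 at 698, Asns at 1105, Mthfd2 at 1313, Mthfd1 at 2842, Psph at 4416 and Atf4 at 6120.

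**Figure D1:**
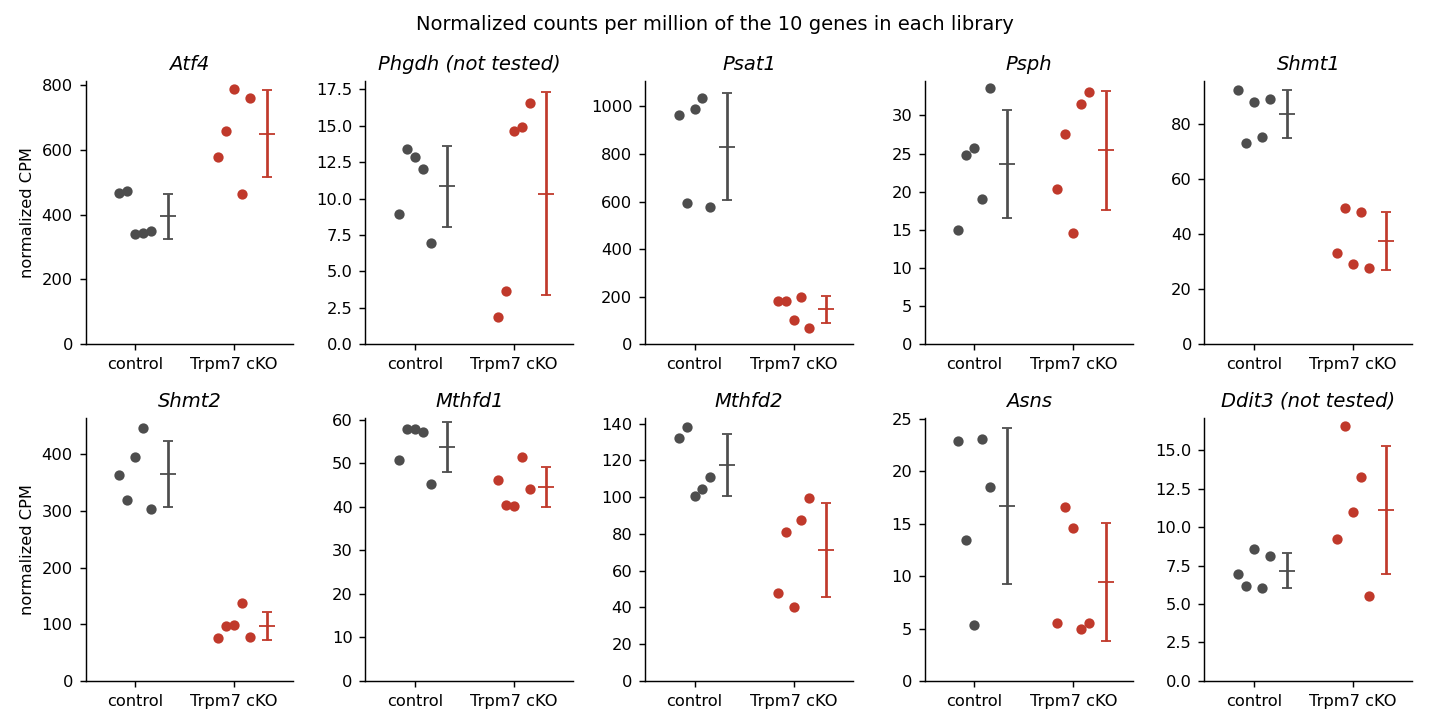
Normalized CPM (linear axes from 0, a scale of its own in each panel) of the 10 genes in 5 control and 5 Trpm7 cKO libraries; points are libraries in the order of replicates 1 to 5, and bars show the mean and SD. Psat1, Shmt1, Shmt2 and Mthfd2 show no overlap between the genotypes, and in Atf4 a Trpm7 cKO library at 462 CPM lies within the control range.

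**Figure D2:**
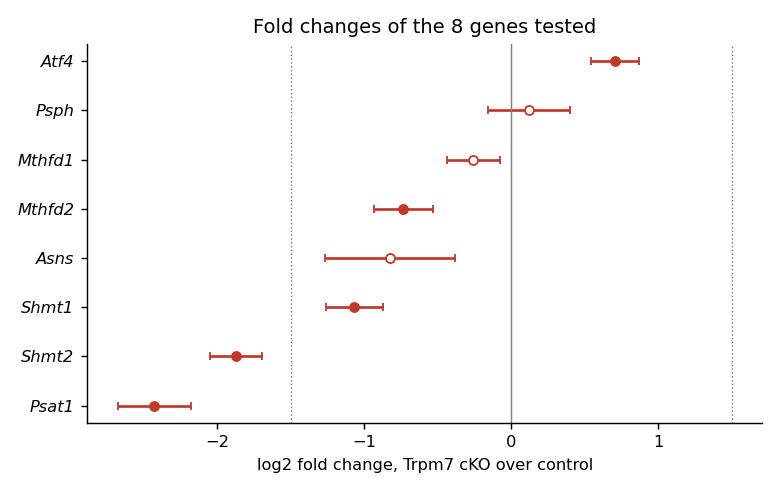
Log2 fold change, Trpm7 cKO over control, of the 8 genes tested; bars are standard errors, filled points have an adjusted p below 0.05 and dotted lines mark 1.5 in either direction. Psat1 and Shmt2 lie beyond the dotted line on the lower side, and Atf4 is the only filled point above 0.

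Atf4 (GRCm38 chr15:80255184-80257541, forward strand, 3 exons) was the only member called higher. Its counts were 469, 458, 317, 342 and 302 in controls 1 to 5, which is 466, 473, 340, 343 and 350 CPM. In Trpm7 cKO replicates 1 to 5 the counts were 312, 357, 216, 279 and 138, which is 577, 657, 789, 462 and 762 CPM. The counts themselves were thus mostly smaller in Trpm7 cKO, and the normalized level was above every control in 4 of 5 Trpm7 cKO libraries, replicate 4 being the exception. The mean was 394 ± 68.8 CPM in control and 649 ± 135 CPM in Trpm7 cKO libraries (SD, n = 5 each). The log2 fold change was 0.71 (SE 0.16, adjusted p = 0.00128, edgeR quasi-likelihood F test, Benjamini-Hochberg adjusted), larger than the replicate error.

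Of 16 regulators of eIF2α tested, 4 were lower and 4 were higher, shares close to the 24.1% and 24.6% of all genes, with a median log2 fold change of 0.07. With the leukocyte covariate described below, 0 were lower and 2 higher, beside 127 lower and 382 higher of all 7753 genes tested. Eif2ak3, which encodes the endoplasmic reticulum stress kinase PERK, was 3.42-fold higher, from 23.7 ± 2.94 to 83.1 ± 28.1 CPM (SD, n = 5 per genotype), with a log2 fold change of 1.77 (adjusted p = 9.50e-06 in the same edgeR test). Eif2ak2, for the double-stranded RNA kinase PKR, was 2.27-fold higher with an adjusted p of 0.00182. Eif2ak1, for the haem-regulated kinase HRI, was 1.80-fold lower with an adjusted p of 0.0108. Eif2ak4, for the amino acid-sensing kinase GCN2, did not pass the test, with a log2 fold change of 0.27 and an adjusted p of 0.542.

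The phosphatase subunit gene Ppp1r15a, whose product GADD34 is induced by ATF4 and removes the eIF2α phosphate, was 3.15-fold higher, from 230 ± 31.2 to 727 ± 169 CPM (SD, n = 5 per genotype), without overlap, and its log2 fold change was 1.65 (adjusted p = 2.24e-07 in the same edgeR test). Its constitutive counterpart Ppp1r15b had a log2 fold change of -0.04 and did not pass the test, with an adjusted p of 0.847. Eif2s1, which encodes eIF2α itself, was 2.90-fold lower, from 317 ± 101 to 104 ± 37.2 CPM (SD, n = 5 per genotype), again without overlap (adjusted p = 6.58e-05 in the edgeR test). Eif2b1, for a subunit of the exchange factor eIF2B, was 1.67-fold lower (adjusted p = 0.00489), and Impact, for an inhibitor of GCN2, was 1.62-fold lower (adjusted p = 0.0123). Nck1, for an adaptor that brings a phosphatase to eIF2, was 1.57-fold higher (adjusted p = 0.0103).

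In serine synthesis, Psat1 was called lower, Psph was not called and Phgdh could not be tested. Psat1 (GRCm38 chr19:15904678-15947337, reverse strand, 9 exons), for phosphoserine aminotransferase, had 968, 575, 922, 1030 and 497 counts in controls 1 to 5, and 963, 594, 989, 1034 and 575 CPM. Trpm7 cKO libraries 1 to 5 had 99, 98, 28, 120 and 12 counts, and 183, 180, 102, 199 and 66.2 CPM. The highest Trpm7 cKO library, at 199 CPM, thus lay far below the lowest control library, at 575 CPM, and within the controls replicates 2 and 5 stood below the others. The mean was 831 ± 226 CPM in control and 146 ± 58.3 CPM in Trpm7 cKO libraries (SD, n = 5 each), a log2 fold change of -2.43 (SE 0.25, adjusted p = 9.09e-07 in edgeR's quasi-likelihood test).

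Phgdh (GRCm38 chr3:98313170-98339990, reverse strand), for the dehydrogenase that opens the pathway, had 9, 13, 12, 12 and 6 counts in control and 1, 2, 4, 9 and 3 counts in Trpm7 cKO libraries 1 to 5. Its normalized level was 10.8 ± 2.78 CPM in control and 10.3 ± 6.97 CPM in Trpm7 cKO libraries (SD, n = 5 each). On 1 to 9 counts each, Trpm7 cKO replicates 1 and 2 were at 1.85 and 3.68 CPM, below every control. Trpm7 cKO replicates 3, 4 and 5 were at 14.6, 14.9 and 16.6 CPM, above every control. Whether this spread exceeds counting error was not tested. The mean did not differ beyond that spread (exact permutation test, two-sided, p = 0.865), and the pooled ratio of Trpm7 cKO to control was 0.813, with an exact 95% interval of 0.454 to 1.40 that covers counting error only. Of the last 500 bases of the Phgdh transcript, 47.9% of the stretches of 31 bases also occur in other annotated transcripts, most of them unnamed gene models, so that its counts are uncertain.

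Psph (GRCm38 chr5:129765558-129787449, reverse strand), for the phosphatase that releases serine, had 15 to 29 counts in control and 4 to 19 counts in Trpm7 cKO libraries. Its level was 23.6 ± 7.09 CPM in control and 25.4 ± 7.80 CPM in Trpm7 cKO libraries (SD, n = 5 each), and the ranges overlapped. The log2 fold change was 0.12 (SE 0.28, adjusted p = 0.743 in the edgeR test), within the replicate error.

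Both serine hydroxymethyltransferase genes were lower. Shmt2 (GRCm38 chr10:127517123-127522444, reverse strand, 12 exons), for the mitochondrial enzyme, had 365, 309, 368, 444 and 262 counts in controls 1 to 5, and 363, 319, 395, 446 and 303 CPM. Trpm7 cKO libraries 1 to 5 had 41, 53, 27, 83 and 14 counts, and 75.8, 97.5, 98.7, 138 and 77.3 CPM. All Trpm7 cKO libraries lay below all controls, and the 5 controls took the same order as for Psat1, from replicate 4 at the top through 3, 1 and 2 to 5. The mean fell from 365 ± 57.7 to 97.3 ± 24.9 CPM (SD, n = 5 per genotype), a log2 fold change of -1.87 (SE 0.18, adjusted p = 9.05e-08 in edgeR's quasi-likelihood test). The 3′ end of Shmt2 overlaps the gene Ndufa4l2 on the opposite strand. Ndufa4l2 had 0 counts in every control and 0 to 3 counts in Trpm7 cKO libraries. Of the stretches of 31 bases in the last 500 bases of Shmt2, 0.0% occur in other annotated transcripts.

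Shmt1 (GRCm38 chr11:60788104-60811718, reverse strand, 12 exons), for the cytosolic enzyme, had 93, 71, 82, 75 and 77 counts in controls 1 to 5, and 92.5, 73.3, 87.9, 75.3 and 89.1 CPM. Trpm7 cKO libraries 1 to 5 had 18, 27, 8, 29 and 5 counts, and 33.3, 49.7, 29.2, 48.1 and 27.6 CPM, again below every control. The mean fell from 83.6 ± 8.71 to 37.6 ± 10.5 CPM (SD, n = 5 per genotype), a log2 fold change of -1.07 (SE 0.19, adjusted p = 0.000123 in the edgeR test). The 3′ end of Shmt1 overlaps Smcr8 on the opposite strand, and 32.8% of the stretches of 31 bases in its last 500 bases also occur there. Smcr8 itself had 3 to 8 counts in control and 0 to 4 counts in Trpm7 cKO libraries, and the strand setting of the counting is not given in the sources used here.

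Among the dehydrogenase genes, the mitochondrial member was called and the cytosolic member was not. Mthfd2 (GRCm38 chr6:83305691-83325908, reverse strand, 8 exons), for an enzyme known as high in embryonic and proliferating cells, had 133, 134, 94, 104 and 96 counts in controls 1 to 5, and 132, 138, 101, 104 and 111 CPM. Trpm7 cKO libraries 1 to 5 had 26, 44, 11, 53 and 18 counts, and 48.0, 81.0, 40.2, 87.8 and 99.3 CPM. Replicate 5 of Trpm7 cKO came close to the lowest control, replicate 3 at 101 CPM, without passing it, and replicates 1 and 3 of Trpm7 cKO were the lowest. The mean fell from 117 ± 16.9 to 71.3 ± 25.8 CPM (SD, n = 5 per genotype), a log2 fold change of -0.73 (SE 0.20, adjusted p = 0.00515 in edgeR's quasi-likelihood test).

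Mthfd1 (GRCm38 chr12:76255298-76319803, forward strand, 28 exons), for the cytosolic enzyme that joins several folate activities in 1 protein, had 39 to 57 counts in control and 8 to 31 counts in Trpm7 cKO libraries. Its level was 53.8 ± 5.68 CPM in control and 44.5 ± 4.60 CPM in Trpm7 cKO libraries (SD, n = 5 each), with overlapping ranges. The log2 fold change was -0.26 (SE 0.18) and did not pass the test (adjusted p = 0.25, edgeR's quasi-likelihood test).

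Ratios of 2 genes within a library do not depend on how libraries are scaled. They were taken as log2 of the counts with 0.5 added, and 4 were compared by exact two-sided permutation tests on the 252 splits and adjusted over the 4 by the Benjamini-Hochberg method. The ratio of mitochondrial Shmt2 to cytosolic Shmt1 was 1.97, 2.11, 2.16, 2.56 and 1.76 on the log2 scale in control replicates 1 to 5, and 1.17, 0.96, 1.69, 1.501 and 1.40 in Trpm7 cKO replicates 1 to 5. Every control lay above every Trpm7 cKO library, although control replicate 5 and Trpm7 cKO replicate 3 were close. The mean difference was -0.77, or 0.587-fold (exact permutation p = 0.00794, the smallest that 5 libraries against 5 allow, adjusted p = 0.0317), so that Shmt2 differed more than Shmt1.

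The ratio of Mthfd2 to Mthfd1 was 1.11 ± 0.27 on the log2 scale in control and 0.59 ± 0.52 in Trpm7 cKO (SD, n = 5 per genotype). In Trpm7 cKO, replicates 1 and 3 were at 0.06 and 0.00 and the other 3 at 0.76 to 1.12, within the control range or just under it. The difference of -0.53 did not pass the test (exact permutation p = 0.0794, adjusted p = 0.106), and the unequal calls of these genes are therefore not shown to differ.

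**Figure D3:**
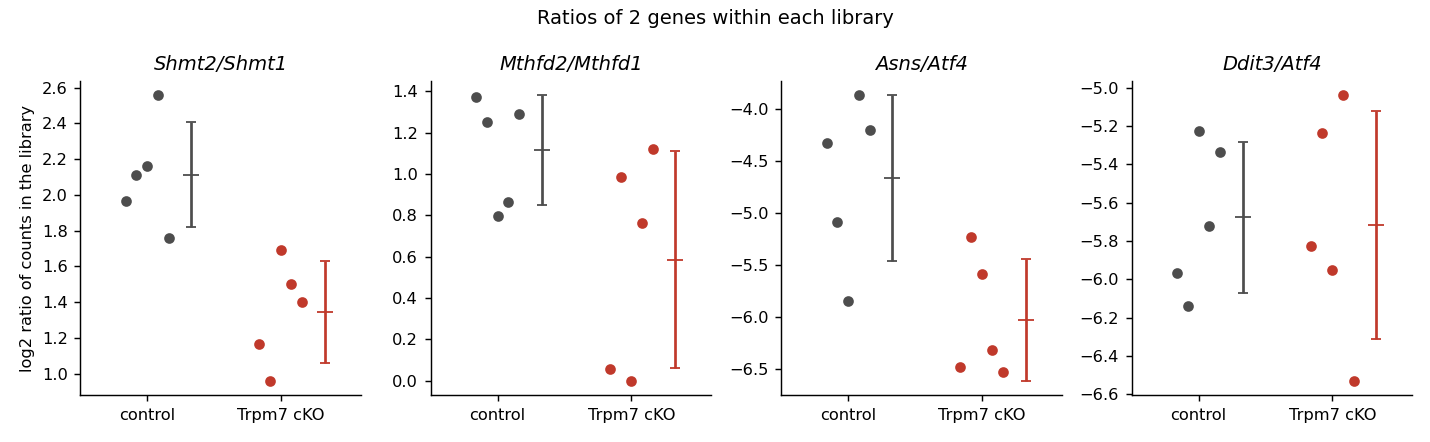
Log2 ratio of the counts of 2 genes within each library, with 0.5 added to both, in 5 control and 5 Trpm7 cKO libraries; points are libraries and bars show the mean and SD. The ratio of Shmt2 to Shmt1 separates the genotypes at 1.76 against 1.69, and the other 3 ratios overlap.

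Asns (GRCm38 chr6:7675169-7693254, reverse strand, 12 exons), for asparagine synthetase and a standard readout of ATF4 activity, had 23, 13, 5, 23 and 16 counts in control and 3, 9, 4, 3 and 1 counts in Trpm7 cKO libraries 1 to 5. Normalized, control replicates were at 22.9, 13.4, 5.36, 23.1 and 18.5 CPM and Trpm7 cKO replicates at 5.54, 16.6, 14.6, 4.97 and 5.52 CPM. The groups overlapped, with control replicate 3 among the low libraries and Trpm7 cKO replicates 2 and 3 among the high ones. The log2 fold change was -0.82 (SE 0.44) and did not pass the test (adjusted p = 0.131, edgeR's quasi-likelihood test). With no filter on low counts it was -1.01 with an adjusted p of 0.0459 in the same test. All tested members had lower values in that fit than with the filter, such as 0.49 against 0.71 for Atf4. The pooled ratio of Trpm7 cKO to control was 0.556, with an exact 95% interval of 0.323 to 0.917 for counting error.

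Set against Atf4 within each library, Asns lay at -4.66 ± 0.80 on the log2 scale in control and -6.03 ± 0.58 in Trpm7 cKO (SD, n = 5 per genotype). The difference of -1.37 corresponds to 0.388-fold and had an exact permutation p of 0.0317, but did not pass after adjustment (adjusted p = 0.0635). Over the 10 fits that left out a library, the adjusted p of the exact permutation test ran from 0.0317 to 0.127. Only the fit without control replicate 3 passed, with a difference of -1.66. With Trpm7 cKO replicates 4 and 5 summed, the adjusted p of the same test was 0.106. The RNA of Atf4 was called higher, and that of Asns was not called in either direction.

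Ddit3 (GRCm38 chr10:127290774-127296288, forward strand, 4 exons), for the stress-induced factor CHOP, had 7, 6, 8, 6 and 7 counts in control and 5, 9, 3, 8 and 1 counts in Trpm7 cKO libraries 1 to 5. This was 6.96, 6.20, 8.58, 6.02 and 8.10 CPM in control and 9.24, 16.6, 10.96, 13.3 and 5.52 CPM in Trpm7 cKO. In 4 of 5 Trpm7 cKO libraries the level was above every control, and replicate 5, with 1 count, was below them. Too few counts were present for the fit across genes, and the difference was not resolved at this depth (exact permutation test, two-sided, p = 0.0873, pooled ratio 1.70 with an exact 95% interval of 0.980 to 2.92 for counting error). The ratio of Ddit3 to Atf4 differed by -0.04 on the log2 scale (exact permutation p = 0.929). The 3′ end of Ddit3 overlaps Mars1 on the opposite strand, which had 24 to 40 counts in control and 2 to 16 counts in Trpm7 cKO libraries.

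The leukocyte marker level moved with genotype, and the values of the called genes are given beside it. Trpm7 cKO replicate 2 had the least leukocyte signal of its genotype, 1667 CPM against at most 727 CPM in control. In that library Psat1 stood at 0.217 and Shmt2 at 0.267 of their control means, Shmt1 at 0.594, Mthfd2 at 0.690 and Atf4 at 1.67. Each of these lay outside the range of the 5 controls. Trpm7 cKO replicate 4 had the most leukocyte signal, 7471 CPM. In that library Psat1 at 199 CPM and Shmt2 at 138 CPM were the highest of their genotype. Its Atf4, at 462 CPM, was the lowest of that genotype. Trpm7 cKO replicate 5, with nearly as much leukocyte signal at 7119 CPM, had the lowest Psat1 of its genotype, 66.2 CPM, Shmt2 at 77.3 CPM and Atf4 at 762 CPM. Among the controls, replicates 2 and 5 had the most leukocyte signal, 637 and 727 CPM, and the least Psat1 and Shmt2.

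With the mean log2 CPM of 24 tested leukocyte markers as a covariate, 1 of the 8 genes was called lower and 0 higher, while of all genes tested 1.64% were called lower and 6.57% in either direction. Shmt2 remained past the threshold, with a log2 fold change of -1.90 (adjusted p = 0.03, edgeR's quasi-likelihood test), and the values of Psat1, Mthfd2, Shmt1 and Atf4 were -1.53, -1.09, -0.74 and 0.75, with adjusted p of 0.224, 0.271, 0.477 and 0.354. The covariate ran from 3.68 to 4.27 in control and from 5.52 to 7.55 in Trpm7 cKO, without overlap, so that genotype and leukocyte level cannot be told apart here.

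**Figure D4:**
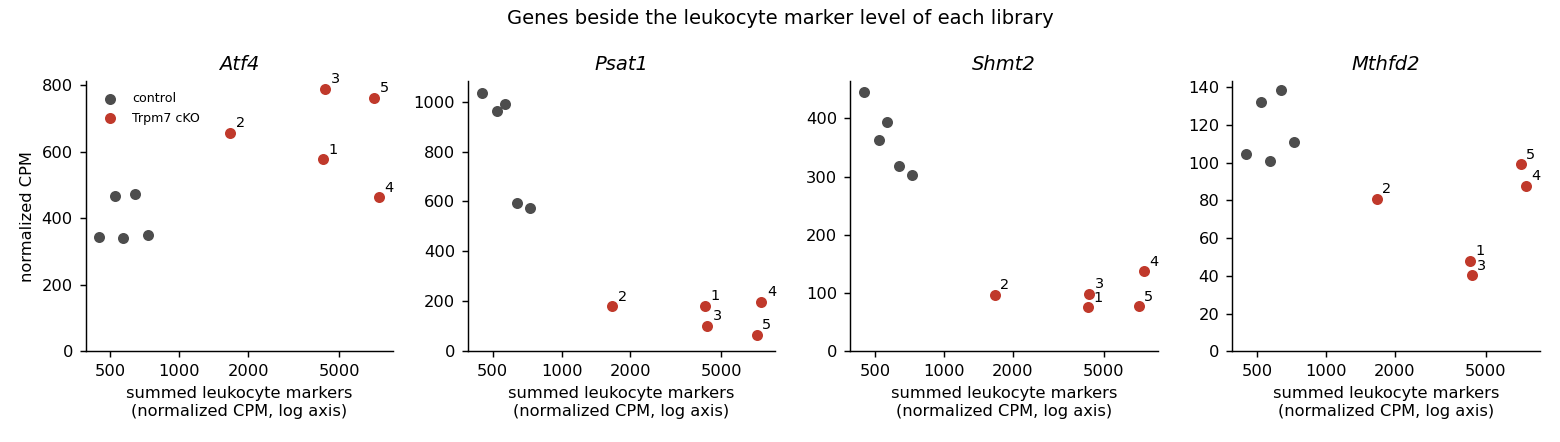
Normalized CPM of Atf4, Psat1, Shmt2 and Mthfd2 against the summed CPM of 30 leukocyte markers (log axis) in each of the 10 libraries, with Trpm7 cKO libraries numbered by replicate. Trpm7 cKO replicate 2, at 1667 CPM of leukocyte markers, has Psat1 at 180 and Shmt2 at 97.5 CPM, below every control library.

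Of 23 other ATF4 targets tested, 6 were lower and 8 higher, against 24.1% and 24.6% of all genes, and the median log2 fold change was -0.11. With the leukocyte covariate, 1 was lower and 2 were higher, beside 127 lower and 382 higher of all 7753 genes tested. The named genes called higher were 3 transcription factors and a cytokine. Cebpb, for a C/EBP partner of ATF4 that inflammation also induces, was 4.95-fold higher, from 200 ± 64.6 to 1001 ± 368 CPM (SD, n = 5 per genotype). Atf3, for a repressor induced by many stresses, was 4.55-fold higher, from 43.9 ± 12.04 to 202 ± 26.9 CPM. Gdf15, for a secreted stress cytokine, was 4.10-fold higher, and Cebpg, for a heterodimer partner of ATF4, was 2.35-fold higher. All 4 were without overlap between the genotypes, with adjusted p of 2.09e-06 for Cebpb, 2.04e-08 for Atf3, 2.67e-05 for Gdf15 and 6.77e-06 for Cebpg in edgeR's quasi-likelihood test. Over all 23 targets tested, 6 were higher without overlap, against 16.6% of all genes tested. Leukocytes also express Cebpb and Atf3. As 2 of the 23 targets were called higher with the leukocyte covariate, not all 4 of these genes kept their call. Genotype and leukocyte level cannot be told apart here, so that the part of the leukocyte level in these values is not known.

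The targets called lower included genes of amino acid handling. Got1, for the cytosolic aspartate aminotransferase, was 3.91-fold lower, from 212 ± 53.1 to 51.0 ± 22.1 CPM (SD, n = 5 per genotype), with an adjusted p of 2.07e-06 in the edgeR test. Slc7a1, for a cationic amino acid transporter, was 1.96-fold lower with an adjusted p of 0.000103. Slc3a2, for the heavy chain of amino acid exchangers, was 1.75-fold lower, from 514 ± 47.9 to 287 ± 82.6 CPM, with an adjusted p of 0.000507. Slc1a5, for a glutamine transporter, was 1.95-fold lower with an adjusted p of 0.00254, with overlap between the genotypes.

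In the folate and methionine cycles, 6 of the 14 tested genes reported here were lower, against 24.1% of all genes. The median log2 fold change of these 14 was -0.34. With the leukocyte covariate, 0 were called lower, beside 1.64% of all genes tested. Mthfd1l, for the mitochondrial synthetase that releases formate, was 2.13-fold lower, from 97.7 ± 12.2 to 44.7 ± 14.6 CPM (SD, n = 5 per genotype, adjusted p = 0.000164 in edgeR's quasi-likelihood test). Gcsh, for the lipoyl carrier of the mitochondrial glycine cleavage system, was 2.05-fold lower (adjusted p = 0.000151). Tyms, for thymidylate synthase, was 2.30-fold lower, from 40.2 ± 12.3 to 19.0 ± 9.35 CPM (adjusted p = 0.00332). Mtr, for methionine synthase, was 1.77-fold lower (adjusted p = 0.00418).

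Among purine and pyrimidine synthesis genes, 9 of 15 tested were lower and 0 higher in edgeR's test, also 0 higher in DESeq2 and at an unadjusted p below 0.05, with a median log2 fold change of -0.75, against 24.1% lower and 24.6% higher of all genes. With the leukocyte covariate, 0 were called lower, beside 1.64% of all genes tested. Without Trpm7 cKO replicate 2, 4 or 5, when more genes are tested, 1 was higher. Paics, for a bifunctional purine enzyme, was 3.02-fold lower, from 662 ± 161 to 211 ± 86.9 CPM (SD, n = 5 per genotype, adjusted p = 0.000104 in edgeR's quasi-likelihood test). Ppat, for the committed purine step, was 2.42-fold lower (adjusted p = 0.00021). Prps1, for the synthetase that makes the ribose phosphate donor, was 1.82-fold lower, and Adss, for adenylosuccinate synthetase, 1.75-fold lower, with adjusted p of 0.000409 and 0.000605. These 4 were without overlap between the genotypes. Over all 15 tested, 7 were lower without overlap, against 17.9% of all genes tested.

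Genes of the other arms of the unfolded protein response were mostly not called. Of 22 tested, 4 were lower, or 2 without control replicate 5, and 1 was higher, smaller shares than the 24.1% and 24.6% of all genes, and the median log2 fold change was -0.08. Manf, for a secreted protein of stressed endoplasmic reticulum, was 2.91-fold lower, from 587 ± 42.3 to 199.999 ± 23.5 CPM (SD, n = 5 per genotype, adjusted p = 3.97e-08 in edgeR's quasi-likelihood test). Creld2 was 1.62-fold lower (adjusted p = 0.0113), Pdia6, for a disulfide isomerase, 1.41-fold lower (adjusted p = 0.0164), and Hspa5, for the chaperone BiP, 1.32-fold lower (adjusted p = 0.0363). Herpud1, for a protein of endoplasmic reticulum degradation, was 1.54-fold higher (adjusted p = 0.0434), a call that was absent in 7 of the 10 fits that left out a library.

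**Figure D5:**
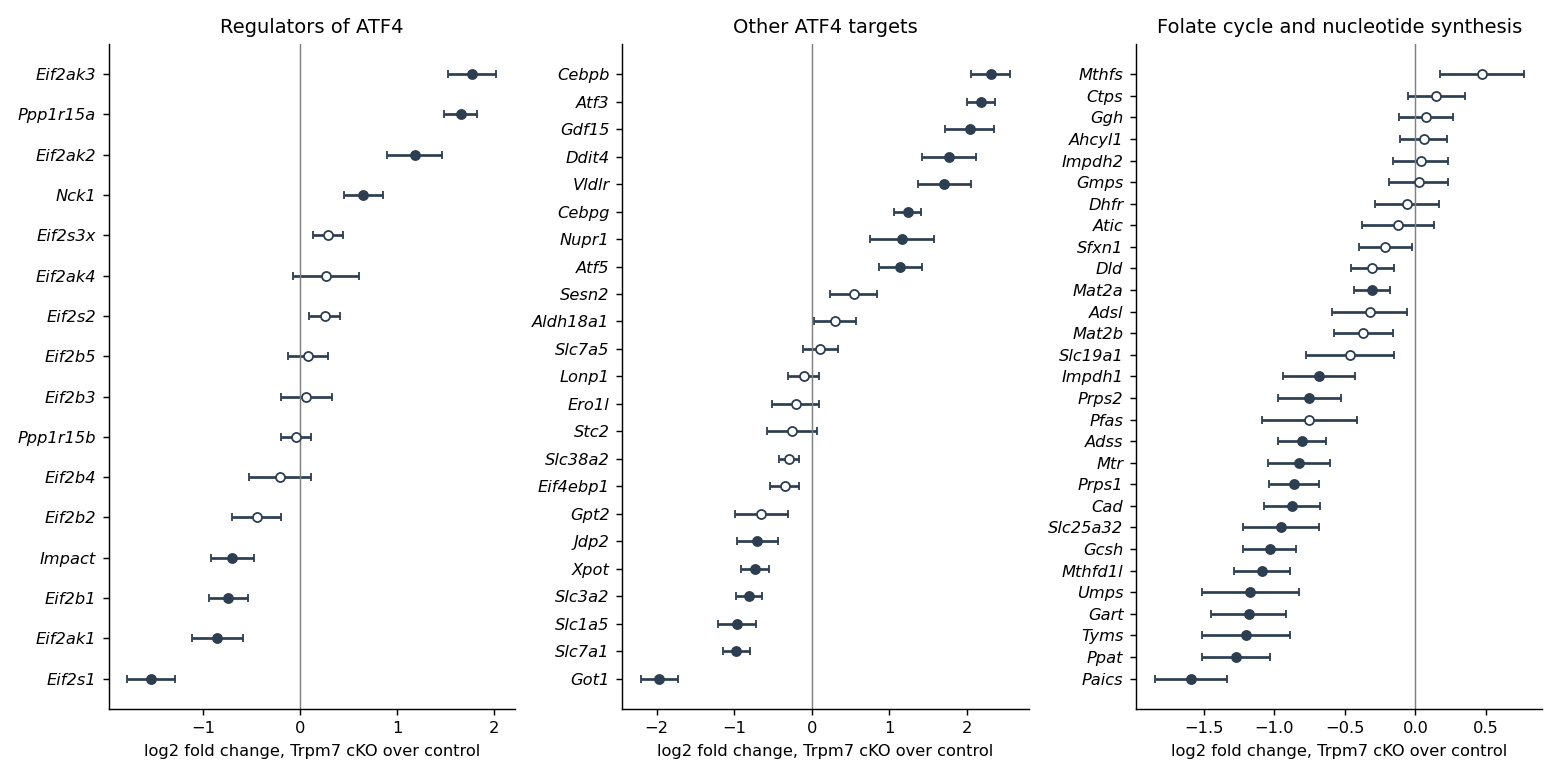
Log2 fold change, Trpm7 cKO over control, of the tested genes in 3 groups of lists; bars are standard errors and filled points have an adjusted p below 0.05. Regulators and targets of ATF4 spread to both sides of 0, and Paics lies lowest among the folate cycle and nucleotide synthesis genes reported here.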

How the data were processed

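RNA of sorted MuSCs was measured in 10 libraries, and the authors deposited whole-number UMI counts per gene without normalization. Per the paper's methods and the labels, UMI-tools 1.1.4, Trim Galore 0.6.10, HISAT2 2.2.1 on GRCm38 and featureCounts 2.0.6 made them, and the annotation release and strand setting are not given in the sources used here. The table has 24620 entries under 24608 symbols, and where 12 symbols had a further line the entry with the larger total was used. Every column was mapped to a sample by its label. No 2 libraries within a genotype agreed to within counting noise.

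Genes were kept by filterByExpr of edgeR 4.0.16 (minimum count 10, minimum total count 15), scaled by TMM and tested by the robust quasi-likelihood F test in R 4.3.3, with genotype as the only term and Benjamini-Hochberg adjustment over 7753 genes. Depth sets the precision: at 205986 counts, the smallest library, a gene at 10 CPM yields a few counts. Ratios and untested genes were compared by exact permutation tests. Positions came from GENCODE on GRCm38 and promoters from RefSeq. The members and lists were chosen with earlier results of these data known. Some listed genes that are not members are not reported here and were left out of the list counts, so that these counts do not cover every gene of a pathway. The text names all members, Trpm7, the eIF2 kinase and Ppp1r15 genes and, of each other list and direction, up to 4 called genes of lowest adjusted p with a mean of at least 10 CPM. The scripts were tested on simulated data. Alternatives were DESeq2 1.42.0, limma-voom (limma 3.58.1), RLE factors, library totals, scaling on MuSC markers, other filters, a replicate block, a leukocyte covariate, Trpm7 cKO replicates 4 and 5 summed, each library left out, and other added counts for the ratios.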

Additional observations from a re-analysis of the deposited data

How the results depend on the processing

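The count of 4 members lower and 1 higher was the same in every alternative except the leukocyte covariate and the fit without a filter, which called 5 lower with Asns added. It held in all 10 fits that left out a library and in the fit with the replicate block. Of all 21914 genes tested without a filter, 2635 were lower and 2881 higher. Under the leukocyte covariate, 127 of all 7753 genes tested were lower and 382 higher. In that fit 1 member was lower, 1 lower past both thresholds and 0 higher, and regulators had 0 lower and 2 higher. Other targets had 1 and 2, folate genes 0 lower, purine and pyrimidine genes 0 lower, and other stress arms 1 and 0. The log2 fold change of Asns then turned to 0.99 (adjusted p = 0.677) and that of Psph to -0.49, neither called. Psph was also at -0.006 when scaled on MuSC markers, at -0.07 without a filter and at -0.015 to 0.29 with a library left out. With a minimum count of 30, where fewer genes are tested, 2 regulators and 4 targets were higher. In that fit 3 folate genes were lower, and 2 stress-arm genes were lower and 3 higher. Of all 4357 genes tested in it, 1203 were lower and 1245 higher. Without a filter, 1 of the folate genes reported here, 1 purine or pyrimidine gene and 0 stress-arm genes were higher. With Trpm7 cKO replicates 4 and 5 summed, 1 purine or pyrimidine gene and 0 stress-arm genes were higher, the ratio of Shmt2 to Shmt1 was -0.78 (adjusted p = 0.0635) and that of Ddit3 to Atf4 was 0.059, which was 0.041 with 1 added. Stress-arm genes numbered 2 lower and 2 higher with library totals, and 0 higher with DESeq2 and with MuSC scaling. With a library left out, those folate genes higher ranged from 0 to 1, purine and pyrimidine genes higher from 0 to 1, and stress-arm genes from 2 to 6 lower and 0 to 1 higher. The ratio of Shmt2 to Shmt1 ranged from -0.86 to -0.66, that of Asns to Atf4 from -1.66 to -1.17 and that of Ddit3 to Atf4 from -0.21 to 0.16. With 4 libraries against 5, adjusted p of the first is mostly 0.0635, a limit of the smaller design. Apart from designs with fewer genes or samples, the cause of these changes was not tested. Over all genes tested, the median difference on the log2 scale was 0.10 with library totals and -0.15 with MuSC scaling. Without a filter, when 21914 genes were tested, it was 0.17. The replicate numbers did not pair the samples (correlations of same-numbered deviations from -0.12 to 0.18), and with the replicate block 1758 genes were lower and 1814 higher, against 1866 and 1908 without it, with 4 members lower and 1 higher in either case. Asns was not tested with a minimum count of 30 or without any of the control libraries. Psph was also not tested with a minimum count of 30. Phgdh, Ddit3 and Asns are limited by depth, with at most 23 counts in any library.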

Other observations

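Of the 33 other ATF4 targets in the table, 10 had too few counts to be tested, among them several standard readouts of the stress response. These are named because the filter removed them, after their values were seen, and intervals cover counting error only. Chac1, for a glutathione-degrading enzyme, had 20 counts over all control and 3 over all Trpm7 cKO libraries, a pooled normalized ratio of 0.334 (exact 95% interval 0.0635 to 1.13). Cth, for cystathionine gamma-lyase, had 25 and 5 counts, a ratio of 0.445 (0.133 to 1.18). Trib3, for a pseudokinase that restrains ATF4, had 5 and 1 counts, and Slc7a11, for the cystine exchanger, 5 and 4. Slc1a4, for a neutral amino acid transporter that carries serine, had 18 and 22 counts, a ratio of 2.72 (1.39 to 5.38), and Pck2, for the mitochondrial carboxykinase, 39 and 33 counts, a ratio of 1.88 (1.15 to 3.07). Slc6a9, for a glycine transporter, had 0 counts in all 10 libraries. Intervals of Chac1 and Cth include 1, and those of Slc1a4 and Pck2 lie above it.

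Among the folate genes that were not tested, Aldh1l2, for the mitochondrial enzyme that oxidizes formyl-folate, had 6 counts over control and 1 over Trpm7 cKO libraries, and Mthfd2l, the paralogue of Mthfd2, had 55 and 26, a pooled normalized ratio of 1.05 (exact 95% interval 0.633 to 1.71). Of the untested folate and nucleotide genes, Dhodh, for the mitochondrial step of pyrimidine synthesis, had 84 and 13 counts, a ratio of 0.344 (0.176 to 0.621), and was the only such gene whose interval lay below 1. Intervals above 1 were found for Adssl1, with 42 and 46 counts and a ratio of 2.44 (1.57 to 3.79), and for Sardh, Cbs, Amt and Aldh1l1. Sardh had 5 and 14 counts and 6.23 (2.12 to 22.1), and Cbs 8 and 13 counts and 3.61 (1.39 to 10.06). Amt had 6 and 9 counts and 3.34 (1.06 to 11.4), and Aldh1l1 1 and 5 counts and 11.1 (1.24 to 526). In single libraries Adssl1 had 3 to 12 counts in control and 3 to 24 in Trpm7 cKO. These genes were picked by their intervals from 16 untested folate and 3 untested nucleotide genes. The intervals cover counting error only, and libraries within a genotype differed by more than that, so that no difference between genotypes is shown.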
